A study of Homo sapiens with 6 samples.

Results

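Metallothionein and zinc transport genes were followed in U2OS cells, a human osteosarcoma line, after knockdown of NUDT5. The 10 genes were taken by symbol from the 19977 symbols of the deposited table. They are the metallothionein genes MT2A, MT1E, MT1X, MT1G and MT1F, the regulator gene MTF1, the exporter gene SLC30A1 and the importer genes SLC39A6, SLC39A10 and SLC39A14. The siNUDT5 group had been given an siRNA against NUDT5 and the siCtrl group a control siRNA. NUDT5 encodes an enzyme that cleaves ADP-ribose. Each group had 3 libraries, made from RNA taken 48 hours after transfection, and the comparison asks what lowering NUDT5 does to the transcriptome. Whether the libraries of a group come from separate cultures is not stated in the labels; all p-values here therefore rest on the variation between libraries, part or all of which may be technical. In such bulk RNA, fewer expressing cells and less RNA per cell cannot be told apart.

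Metallothioneins are small cysteine-rich proteins that bind zinc, copper and cadmium and buffer free zinc in the cytosol. Their genes are switched on by MTF1, a zinc-finger protein that senses zinc and binds short metal response elements in promoters. SLC30 proteins (ZnT) move zinc out of the cytosol, across the plasma membrane or into organelles, and SLC39 proteins (ZIP) move it into the cytosol. SLC30A1 is a known MTF1 target and is induced by zinc together with the metallothionein genes.

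Values are TPM (transcript abundances scaled to the same total in every library), which are corrected for transcript length, so that levels of different genes can be set side by side. NUDT5 was at 2.67 to 3.04 TPM in the siNUDT5 libraries, against 46.2 to 52.0 TPM in the siCtrl libraries, so 5.74% of the siCtrl level remained. Among the marker genes of the cell type, VIM lay at 3028 to 3589 TPM, SPARC at 700.8 to 824 TPM, COL1A1 at 318 to 460.1 TPM and RUNX2 at 7.59 to 13.4 TPM over the 6 libraries, while COL1A2 and TWIST1 stayed under 1 TPM. The epithelial markers KRT8, KRT18, EPCAM and CDH1 were present (EPCAM at 5.10 to 12.8 TPM) and KRT19 stayed under 1 TPM, as did the leukocyte markers PTPRC, LYZ and CD3E, the last at 0 in every library, and both endothelial markers in the table. The markers of the cell type summed to 4762 to 4862 TPM in siNUDT5 and 4058 to 4353 TPM in siCtrl, the epithelial markers to 679 to 758 TPM in siNUDT5 and 772 to 923 TPM in siCtrl, and their part in the results was not tested. Relative depth, read from the steps in low values, was 64.1% to 118% of that of siCtrl 1, lowest in siCtrl 2. Its expression values were also the farthest from the rest of its group: against siCtrl 1 and siCtrl 3 the median absolute difference over genes was 0.296 and 0.227 in log2(TPM + 1); within-group pairs without it gave 0.0967 to 0.134. For the 10 genes, results that rest on siCtrl 2 are given with and without it.

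Promoters of MT2A, MT1X, SLC30A1, SLC39A6 and the further metallothionein gene MT1H are shown for the metal response element, the short sequence that MTF1 binds. The core searched was TGCACNC or TGCGCNC on either strand, in the 250 bases before the RefSeq start of each gene (GRCh38.p14), and it was the only motif searched. Promoters were found for 6 of the 10 genes, MT2A, MT1X, MTF1, SLC30A1, SLC39A10 and SLC39A6, and not for MT1E, MT1G, MT1F or SLC39A14. Of 27305 promoter windows of this length 24.7% held at least 1 match, 6.51% at least 2 and 0.366% at least 4. MT2A had 7 matches, a number that 0.0330% of the windows reached, and MT1X had 4. MT1H, a neighbouring metallothionein gene listed at 0 in every library, had 8, and MT1B and MT4, also at 0 in every library, had 3 each. SLC30A1 and SLC39A6 had 1 match each, and MTF1 and SLC39A10 had none in their windows. The MT2A window lies at chr16:56608334-56608583 on the plus strand, MT1X at chr16:56682220-56682469 (plus), MT1H at chr16:56669564-56669813 (plus), SLC30A1 at chr1:211579162-211579411 (minus) and SLC39A6 at chr18:36129341-36129590 (minus). The sequences run 5′ to 3′ up to the base before the start, with the matches in capitals.
MT2A: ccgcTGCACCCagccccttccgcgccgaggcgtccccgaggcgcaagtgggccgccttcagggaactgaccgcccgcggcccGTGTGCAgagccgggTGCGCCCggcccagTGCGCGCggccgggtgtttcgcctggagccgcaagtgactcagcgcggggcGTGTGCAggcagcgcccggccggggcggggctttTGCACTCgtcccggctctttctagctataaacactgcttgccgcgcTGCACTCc
MT1X: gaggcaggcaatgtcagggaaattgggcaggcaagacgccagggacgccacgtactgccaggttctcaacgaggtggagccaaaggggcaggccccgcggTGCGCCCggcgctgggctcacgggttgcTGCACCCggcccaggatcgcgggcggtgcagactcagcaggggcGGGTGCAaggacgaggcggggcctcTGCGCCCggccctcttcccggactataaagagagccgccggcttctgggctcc
MT1H: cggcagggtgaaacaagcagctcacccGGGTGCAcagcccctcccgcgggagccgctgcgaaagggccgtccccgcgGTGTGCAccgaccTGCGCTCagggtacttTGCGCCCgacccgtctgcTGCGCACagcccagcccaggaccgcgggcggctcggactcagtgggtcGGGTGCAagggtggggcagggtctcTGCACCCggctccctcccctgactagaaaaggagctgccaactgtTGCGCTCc
SLC30A1: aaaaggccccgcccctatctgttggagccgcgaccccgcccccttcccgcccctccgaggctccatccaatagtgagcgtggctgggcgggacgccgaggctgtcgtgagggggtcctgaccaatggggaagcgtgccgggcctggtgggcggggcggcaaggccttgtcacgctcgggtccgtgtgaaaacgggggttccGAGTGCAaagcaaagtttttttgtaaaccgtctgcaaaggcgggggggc
SLC39A6: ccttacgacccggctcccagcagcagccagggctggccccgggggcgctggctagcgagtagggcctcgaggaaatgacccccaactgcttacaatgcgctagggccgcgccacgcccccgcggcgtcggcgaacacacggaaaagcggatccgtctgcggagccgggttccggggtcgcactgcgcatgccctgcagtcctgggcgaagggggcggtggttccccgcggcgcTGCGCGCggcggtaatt
The matches nearest to the start began 53 bases before it in MT1X, 8 bases before it in MT2A and MT1H, 49 in SLC30A1 and 17 in SLC39A6. A match describes the letters of the window and was not tied to binding or to any change reported here.

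Of the 10 genes, 1 passed the test for a change after NUDT5 knockdown. SLC39A6 rose, and MT1E, MT2A, MT1X, MTF1, SLC30A1, SLC39A10 and SLC39A14 did not pass. The test was limma on log2(TPM + 1) over the 12236 genes whose mean reached 1 TPM, two-sided, with Benjamini-Hochberg adjustment and a threshold of 0.05, and 8 of the 10 genes entered it. MT1G lay below the filter and MT1F was listed at 0. Among all tested genes 16.1% passed, 10.9% higher and 5.20% lower in siNUDT5, so 1 of 8 was close to the share of all genes. An unadjusted p under 0.05 was reached by 2 of the 8, SLC39A6 upward and MT1E downward, and by 31.0% of all tested genes. The ranges of siNUDT5 and siCtrl stayed apart in 3 of the 8 (SLC39A6, MTF1 and MT1E), where 37.3% of all tested genes did not overlap. The median log2 change of the 8 was 0.07, against 0.05 over all tested genes; without siCtrl 2 these were 0.15 and 0.07.

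**Figure D1:**
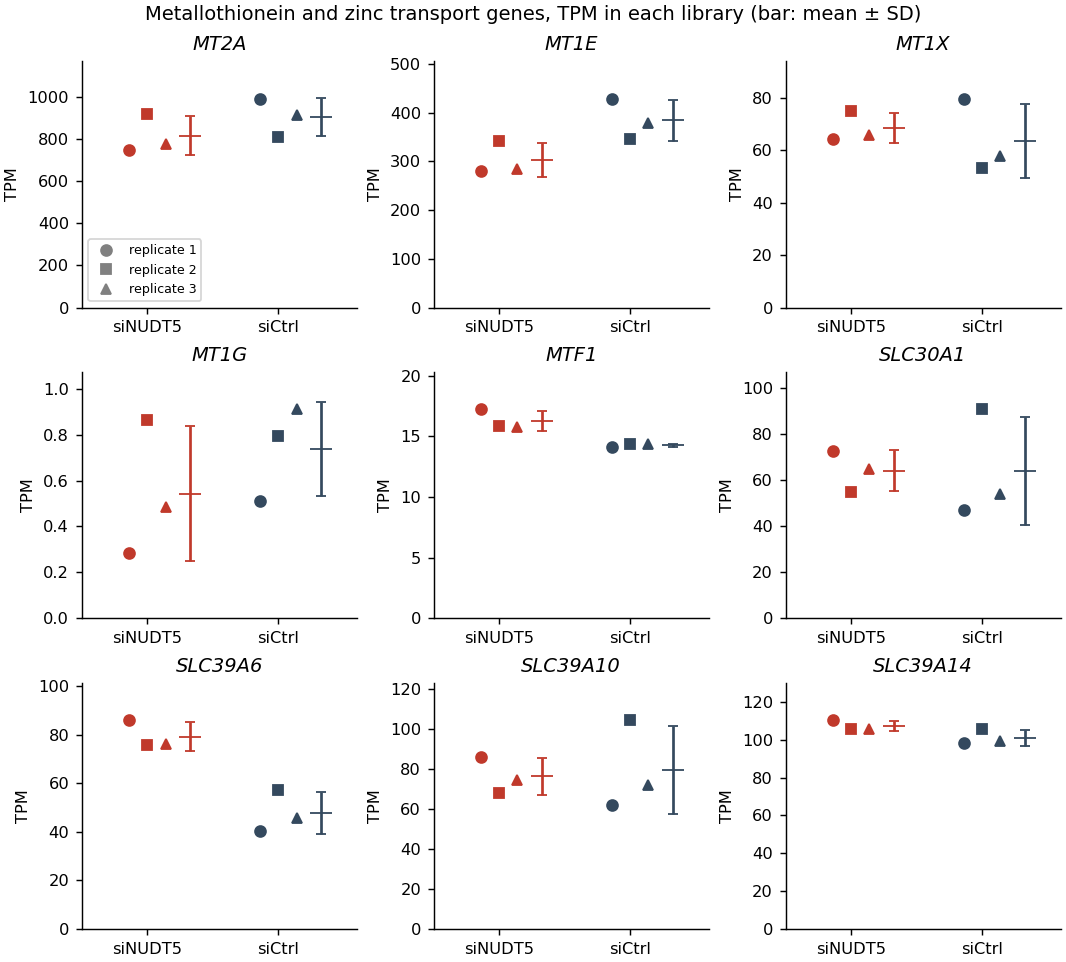
TPM of 9 genes in each library, siNUDT5 left and siCtrl right, with each library's symbol and the mean ± SD (n = 3); each panel has its own axis from 0. SLC39A6 sits at 75.7 to 86.1 TPM in siNUDT5 and at 40.5 to 57.2 TPM in siCtrl, while siCtrl 2 is the highest library for SLC30A1 and SLC39A10.

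MT2A was the most abundant of the 10 genes in both groups. It encodes metallothionein 2, a form expressed in nearly all tissues. Its values were 750.3, 923 and 776 TPM in siNUDT5 1 to 3, against 994, 811 and 917 TPM in siCtrl 1 to 3. The groups overlapped, since siNUDT5 2 lay above siCtrl 2 and siCtrl 3. The means were 817 ± 93.2 TPM in siNUDT5 and 907 ± 91.7 TPM in siCtrl (SD, n = 3 each), and the log2 change was -0.15 (95% interval -0.39 to 0.09, limma adjusted p = 0.364). It was -0.23 without siCtrl 2, which did not pass either (limma adjusted p = 0.0574).

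MT1E came next among the metallothionein genes. Its TPM values were 281, 343 and 284 in siNUDT5 1 to 3, against 429, 346 and 380.0 TPM in siCtrl 1 to 3. Every siNUDT5 library lay below every siCtrl library, though siNUDT5 2 and siCtrl 2 nearly met. The mean was 303 ± 34.9 TPM in siNUDT5 and 385 ± 42.0 TPM in siCtrl (SD, n = 3 each), 78.7% of the siCtrl level. The log2 change was -0.35 (standard error 0.109, 95% interval -0.60 to -0.10), and with limma's adjusted p = 0.0659 it did not pass. Without siCtrl 2 the log2 change was -0.42 with adjusted p = 0.00373.

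MT1X, another inducible metallothionein gene, was at a far lower level. The libraries gave 64.2, 75.1 and 65.9 TPM in siNUDT5 1 to 3, against 79.6, 53.4 and 57.7 TPM in siCtrl 1 to 3. siCtrl 1 was the highest of the 6 libraries and siCtrl 2 the lowest, so the groups overlapped. The log2 change was 0.12 (95% interval -0.22 to 0.46, limma adjusted p = 0.625), and it was 0.0094 without siCtrl 2 and 0.29 without siCtrl 1.

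MT1G was present at the level of single reads. Its level was 0.285, 0.863 and 0.483 TPM in siNUDT5 1 to 3, against 0.509, 0.795 and 0.910 TPM in siCtrl 1 to 3. Multiplied by the relative depth of the libraries, these values were 1, 4 and 2 times the lowest in siNUDT5 and 2, 2 and 4 times the lowest in siCtrl, each within 0.0345% of a whole number. If the lowest value is a single read, MT1G rested on 7 reads in siNUDT5 and 8 in siCtrl, too few to compare. MT1F was listed at 0 in all 6 libraries, and so were MT1A, MT1B, MT1H, MT1M, MT1HL1, MT3 and MT4, the 7 other metallothionein symbols of the table.

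Metallothionein genes resemble each other, and the labels do not say how reads shared between copies were counted. Of the 50-base words in the coding transcripts of GENCODE 29, MT1X shared 43.6% with transcripts of other genes and MT1G 16.5%, against 7.10% in MT1E, 4.24% in MT2A and 3.27% in MT1F. At 100 bases MT1X still shared 30.8%, all with 1 clone-named gene, while MT1E, MT2A, MT1G and MT1F shared none. The level of MT1X is therefore uncertain to the extent that shared reads were split or dropped. SLC30A1, SLC39A6 and SLC39A10 shared no 50-base word with another gene.

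Together the 5 metallothionein genes made up 1096, 1342 and 1127 TPM in siNUDT5 1 to 3, against 1503, 1211 and 1356 TPM in siCtrl 1 to 3. The sums overlapped between groups, with means of 1188 ± 134 TPM in siNUDT5 and 1356 ± 146 TPM in siCtrl (SD, n = 3 each). The makeup of the sum differed more steadily than its size. MT1E held 25.6%, 25.6% and 25.2% of it in siNUDT5 1 to 3, against 28.5%, 28.5% and 28.0% in siCtrl 1 to 3. MT1X held 5.86%, 5.59% and 5.85% in siNUDT5, against 5.30%, 4.41% and 4.26% in siCtrl. MT2A held 68.5% to 68.9% in siNUDT5 and 66.1% to 67.6% in siCtrl.

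A ratio of 2 genes within a library does not move with the scaling of that library. It can still move with a shift by GC content, described below, where the 2 genes differ in it (MT1E 53.5%, MT2A 63.0%). MT1E stood to MT2A as 0.374, 0.371 and 0.366 in siNUDT5 1 to 3, against 0.432, 0.426 and 0.414 in siCtrl 1 to 3. The siNUDT5 libraries all lay below the siCtrl libraries, and the gap was several times the SD of 0.00405 in siNUDT5 and 0.00881 in siCtrl. The difference of the log2 ratios was -0.19 with all libraries and -0.19 without siCtrl 2. It was not computed after GC adjustment. The log2 changes of MT1E and MT2A lay nearer to each other after that adjustment (-0.43 and -0.31) than before it (-0.35 and -0.15). MT1X stood to MT1E as 0.229, 0.219 and 0.232 in siNUDT5 1 to 3, against 0.186, 0.154 and 0.152 in siCtrl 1 to 3, a log2 difference of 0.47. The ratio of MT1X to MT2A, at 0.0813 to 0.0855 in siNUDT5 and 0.0629 to 0.0801 in siCtrl, was close to touching between groups. These ratios and that of SLC39A6 to SLC39A10, 4 in all, were chosen after the values were seen. Each gave an exact two-sided permutation p = 0.1, also after Benjamini-Hochberg adjustment over the 4, the smallest that 3 against 3 libraries allow.

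**Figure D2:**
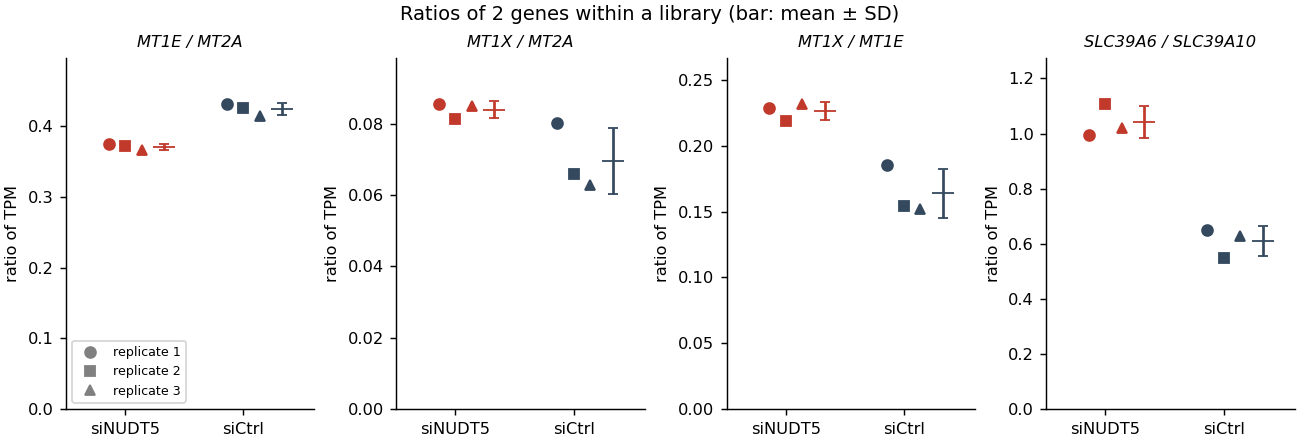
Ratios of the TPM of 2 genes within each library, siNUDT5 left and siCtrl right, with the mean ± SD (n = 3); each axis starts at 0. MT1E to MT2A lies at 0.366 to 0.374 in siNUDT5 and 0.414 to 0.432 in siCtrl, and SLC39A6 to SLC39A10 at 0.996 to 1.11 in siNUDT5 and 0.547 to 0.650 in siCtrl.

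MTF1, the regulator of these genes, was a low transcript with little spread. Its level was 17.2, 15.8 and 15.8 TPM in siNUDT5 1 to 3, against 14.1, 14.3 and 14.3 TPM in siCtrl 1 to 3. All siNUDT5 libraries lay above all siCtrl libraries, by a small margin. Its log2 change was 0.18 (95% interval -0.03 to 0.38), which did not pass (limma adjusted p = 0.221).

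SLC30A1, the exporter of the plasma membrane, averaged nearly the same in both groups. It measured 72.4, 54.9 and 64.7 TPM in siNUDT5 1 to 3, against 47.0, 90.5 and 53.8 TPM in siCtrl 1 to 3. The siCtrl group held both the lowest library and, in siCtrl 2, the highest. This gave a log2 change of 0.05 (95% interval -0.46 to 0.57, limma adjusted p = 0.904). It was 0.33 with adjusted p = 0.0322 without siCtrl 2, and it turned to -0.13 without siCtrl 1.

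SLC39A6 encodes ZIP6, an importer of the plasma membrane that is known to act in a complex with ZIP10. It reached 86.1, 75.7 and 76.1 TPM in siNUDT5 1 to 3, against 40.5, 57.2 and 45.6 TPM in siCtrl 1 to 3. The lowest siNUDT5 library lay well above siCtrl 2, the highest of its group. The mean was 79.3 ± 5.88 TPM in siNUDT5 and 47.7 ± 8.59 TPM in siCtrl (SD, n = 3 each), 166% of the siCtrl level. Its log2 change was 0.73 (standard error 0.130, 95% interval 0.43 to 1.03, limma adjusted p = 0.00822). It was 0.87 without siCtrl 2, and over all 15 other settings it ranged from 0.62 to 0.87 with an adjusted p of at most 0.0438.

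SLC39A10 encodes ZIP10, the partner of ZIP6, and is known in mouse to be lowered by zinc through MTF1. Its TPM were 86.4, 68.4 and 74.6 in siNUDT5 1 to 3, against 62.3, 105 and 72.4 TPM in siCtrl 1 to 3. As for SLC30A1, siCtrl 2 was the highest library and siCtrl 1 the lowest. Its log2 change was -0.03 (95% interval -0.45 to 0.38, limma adjusted p = 0.931) and turned to 0.18 without siCtrl 2 (adjusted p = 0.200). Within each library SLC39A6 stood to SLC39A10 as 0.996, 1.11 and 1.02 in siNUDT5 1 to 3, against 0.650, 0.547 and 0.630 in siCtrl 1 to 3. The log2 ratio differed by 0.78, and by 0.70 without siCtrl 2. The transcripts were thus at about equal levels in siNUDT5, while SLC39A10 was the higher of them in every siCtrl library.

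SLC39A14 encodes ZIP14, which carries iron and manganese as well as zinc. It measured 110 TPM in siNUDT5 1 and 106 TPM in siNUDT5 2 and 3, against 98.1, 106 and 99.4 TPM in siCtrl 1 to 3. The groups met at siCtrl 2. The change came to 0.08 on the log2 scale (95% interval -0.09 to 0.26, limma adjusted p = 0.491), the narrowest interval of the 8 tested genes.

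Ordered by level, MT2A, MT1E and SLC39A14 came first in both groups, and MTF1, MT1G and MT1F came last. In siNUDT5 the genes between were SLC39A6, SLC39A10, MT1X and SLC30A1, from high to low, and in siCtrl they were SLC39A10, SLC30A1, MT1X and SLC39A6. Neighbours among these 4 overlapped in range in both groups, as did SLC39A14 and SLC39A10 in siCtrl. SLC39A6 held the fourth place in siNUDT5 and the seventh in siCtrl.

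The libraries of a group varied in a pattern that the genes shared. siCtrl 2 minus the mean of siCtrl 1 and siCtrl 3 was 0.84 in SLC30A1, 0.63 in SLC39A10 and 0.41 in SLC39A6 on the log2(TPM + 1) scale, and -0.22 in MT1E, -0.23 in MT2A and -0.34 in MT1X. siNUDT5 1 minus siNUDT5 2 had the same signs, at 0.39, 0.33 and 0.18 in the transporter genes and -0.29, -0.30 and -0.22 in the metallothionein genes. Transcripts of SLC30A1, SLC39A10 and SLC39A6 have a GC content of 38.0%, 37.6% and 41.6%, and those of MT1E, MT1X and MT2A of 53.5%, 54.3% and 63.0%. Over all tested genes, split by GC content into 3 equal sets, the first difference had a median of 0.40 in the set with the lowest and -0.26 in the set with the highest GC content. The second had medians of 0.20 and -0.09. MT1E fell in the middle set, where the medians of the 2 differences were 0.06 and 0.03. In the second, MT1E, MT1X and MT2A lay below the lower quartile of genes of like GC content (-0.12, -0.15 and -0.19). SLC30A1 and SLC39A10 lay above the upper quartile (0.32 for both), and SLC39A6 lay between the quartiles. In the first, MT1E and MT1X lay below the lower quartile (-0.20 and -0.29), while MT2A lay between the quartiles (-0.38 and -0.19). SLC30A1 and SLC39A10 were again above the upper quartile (0.61 for both) and SLC39A6 between the quartiles. The part of GC content in the results was not tested beyond the adjustment given next.

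**Figure D3:**
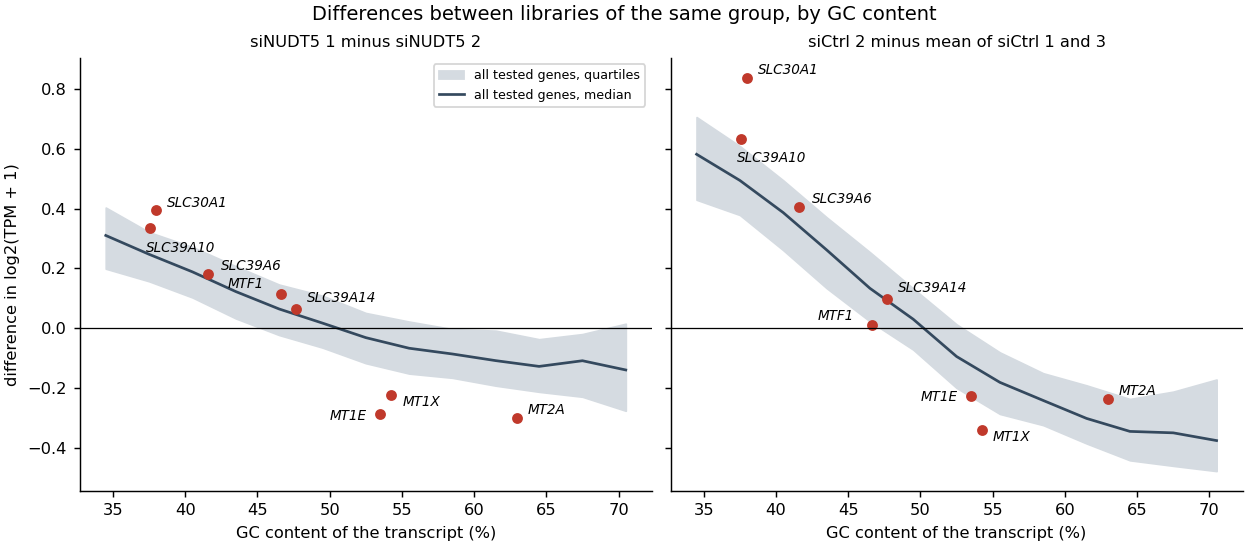
Difference in log2(TPM + 1) between libraries of the same group against the GC content of the transcript, for siNUDT5 1 minus siNUDT5 2 (left) and siCtrl 2 minus the mean of siCtrl 1 and 3 (right); the line and band are the median and quartiles of all tested genes by GC content. SLC30A1 lies at 0.39 on the left and 0.84 on the right, and MT2A at -0.30 and -0.23.

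After each library was adjusted for transcript GC content, an alternative chosen after seeing the data, SLC39A6 kept its rise, with a log2 change of 0.74 (standard error 0.0461, limma adjusted p = 4.90e-06). MT1E then passed at -0.43 (adjusted p = 0.00151) and MT2A at -0.31 (adjusted p = 0.00245). MT1X (0.03), MTF1 (0.15), SLC30A1 (0.08), SLC39A10 (-0.0031) and SLC39A14 (0.05) did not. That made 3 of 8 genes past the threshold, where 40.8% of all 11567 genes in that fit passed. Without siCtrl 2, 3 of 8 passed (SLC39A6, SLC30A1 and MT1E), where 31.1% of all genes did.

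Among the other zinc importer genes 2 rose and none fell. Of 11 listed SLC39 genes 8 were tested, and 2 passed by limma, where 16.1% of all tested genes did. An unadjusted p under 0.05 was reached by 4 of the 8, against 31.0% of all tested genes, and 1 of these was lower, SLC39A8 (ZIP8). Chosen after its values were seen, SLC39A8 averaged 8.95 ± 0.573 TPM in siNUDT5 and 11.8 ± 2.37 TPM in siCtrl (SD, n = 3 each) without overlap, a log2 change of -0.35 with limma's adjusted p = 0.132. SLC39A11 (ZIP11) stood at 19.7, 22.2 and 20.3 TPM in siNUDT5 1 to 3, against 14.8, 14.3 and 14.3 TPM in siCtrl 1 to 3. The log2 change was 0.49 with limma's adjusted p = 0.0105. SLC39A13 (ZIP13), a carrier of vesicles and the Golgi, stood at 9.85, 10.8 and 9.73 TPM in siNUDT5 1 to 3, against 7.49, 5.97 and 7.26 TPM in siCtrl 1 to 3. Its log2 change was 0.50 with limma's adjusted p = 0.0223. The groups did not overlap for either gene, but the calls of both were lost without siCtrl 3 (adjusted p = 0.0569 and 0.0686) and without siNUDT5 2 or siNUDT5 3, and SLC39A13 also without siNUDT5 1.

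The best expressed of the other importers did not pass with all libraries and no adjustment. SLC39A7 (ZIP7), which releases zinc from the endoplasmic reticulum, averaged 176 ± 8.72 TPM in siNUDT5 and 145 ± 11.3 TPM in siCtrl (SD, n = 3 each), with a log2 change of 0.28 and limma adjusted p = 0.0583. It passed without siCtrl 2, at 0.22 with adjusted p = 0.0306, and after GC adjustment, at 0.18 (0.00550). SLC39A1 (ZIP1) averaged 133 ± 5.46 TPM in siNUDT5 and 140 ± 15.5 TPM in siCtrl, and SLC39A9 (ZIP9) 79.5 ± 3.21 TPM in siNUDT5 and 79.5 ± 9.48 TPM in siCtrl, each n = 3. The log2 change of SLC39A1 was -0.07 (limma adjusted p = 0.655), -0.16 without siCtrl 2 (0.0979), and it passed after GC adjustment at -0.19 (0.00553). The median log2 change of the 8 tested importers was 0.10.

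None of the 6 tested genes among the other zinc exporters passed by limma, where 16.1% of all tested genes did. An unadjusted limma p under 0.05 was reached by 2 of the 6, against 31.0% of all tested genes. These were SLC30A3 (0.41) and SLC30A4 (0.46), both upward and named after their values were seen. SLC30A5 and SLC30A6, whose products form a complex of the secretory pathway, had log2 changes of 0.22 (adjusted p = 0.276) and 0.15 (0.581). Both passed without siCtrl 2, at 0.34 (adjusted p = 0.00983) and 0.33 (0.0199), and after GC adjustment, at 0.24 (0.00498) and 0.18 (0.0286). SLC30A9, a carrier of mitochondria, averaged 34.2 ± 3.11 TPM in siNUDT5 and 34.8 ± 6.24 TPM in siCtrl (SD, n = 3 each). The median of the 6 was 0.18, and 0.31 without siCtrl 2.

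**Figure D4:**
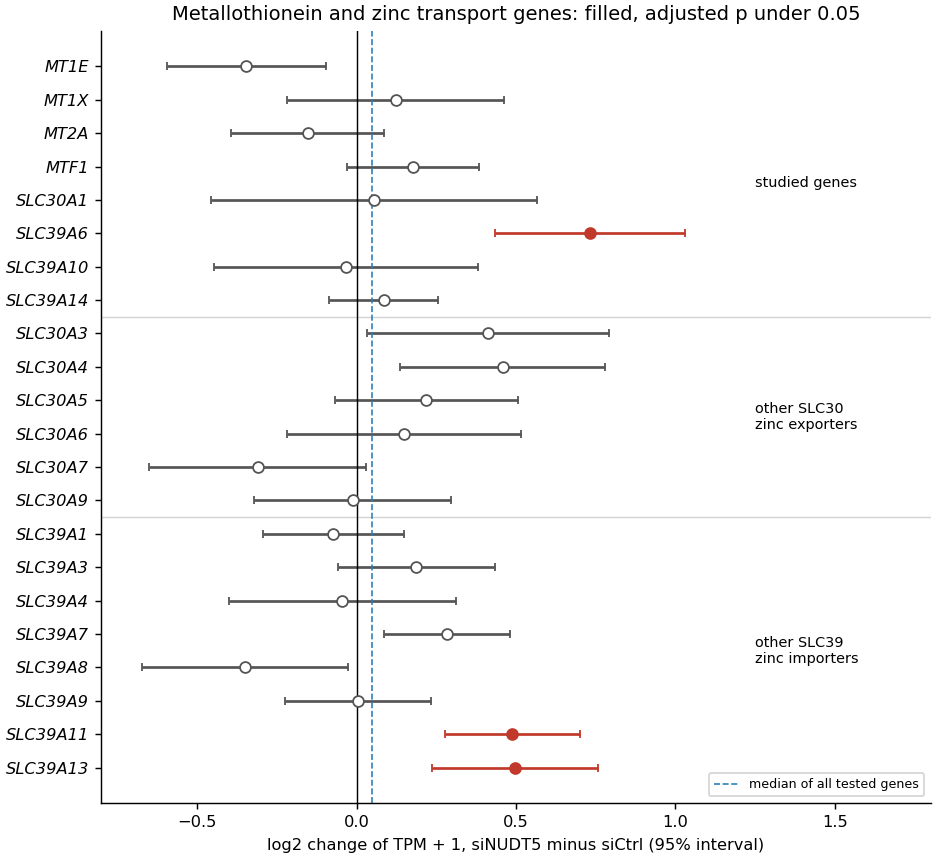
Log2 change of TPM + 1, siNUDT5 minus siCtrl, with its 95% interval, for the 8 tested genes studied here and the other tested SLC30 and SLC39 genes; filled points passed the threshold and the dashed line is the median of all tested genes (0.05). SLC39A6 (0.73), SLC39A13 (0.50) and SLC39A11 (0.49) are the filled points.

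Genes of copper transport, another metal that metallothioneins bind, were set beside them. Of 13 tested 1 rose and none fell, where 10.9% of all tested genes rose and 5.20% fell. SLC31A2, a copper transporter of endosomes, stood at 11.6 to 12.8 TPM in siNUDT5, against 7.53 TPM or less in siCtrl 2 and 3 and 9.22 TPM in siCtrl 1. Its log2 change was 0.57 (limma adjusted p = 0.0137), and the call was lost without siCtrl 3 (0.0679) and without siNUDT5 1 (0.0618), siNUDT5 2 (0.0694) or siNUDT5 3 (0.0509). The mitochondrial copper chaperone genes SCO1 (-0.20) and COX17 (0.38) and the reductase gene STEAP3 (0.22) did not pass. COX17 passed without siCtrl 1 (0.52, limma adjusted p = 0.0224) and was at 0.22 without siCtrl 2 (0.0779), where STEAP3 was at 0.14 (0.204). SCO1 passed with median-ratio scaling (-0.26, adjusted p = 0.0474) and after GC adjustment (-0.22, 0.0182).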

How the data were processed

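The authors deposited TPM for 19977 gene symbols in 1 table, with the 6 libraries as columns of equal total. STAR 2.7.3a, DESeq2 1.22.1 and hg19 appear, with no role, per the submitters' processing notes; the computing of TPM is not described there. Chromatin accessibility was not analysed here. Groups and replicate numbers come from the sample titles. The 10 genes, the gene lists and the tests were chosen with earlier results of these data known.

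TPM are no counts, so limma 3.58.1 (R 4.3.3; lmFit, eBayes with a trend) was run across all genes on log2(TPM + 1) over genes whose mean reached 1 TPM. The scale understates changes of low genes. The fit was tried on 1 simulated data set in which 100 genes had been shifted by 0.5 log2 units and 100 others by 1. Shifts of 0.5 were found in 26 of 100 genes and shifts of 1 in 88 of 100. The unshifted genes gave 7 false calls. Shifts of 0.5 were thus mostly missed, so failing to pass does not show that a gene was unchanged. Exact permutation tests used scipy 1.17.1 (Python 3.11.15). Relative depth was the inverse of the commonest ratio of a library's TPM to that of siCtrl 1. Genes present in both and below 0.3 TPM in siCtrl 1 were used. With this factor 72.0% to 81.5% of these genes lay on ratios of small integers (5 at most) to within 0.1%. TPM keeps no total depth, so counting intervals are not given. GC content and length are those of the longest GENCODE 29 coding transcript, found for 11567 genes (94.5%); the GC adjustment subtracted a loess fit per library. Coordinates are of GRCh38.p14 and belong to RefSeq's promoters, not to the deposited table. The fit was repeated with a pseudocount of 0.1 or 5, with no filter or one of 5 TPM, and with median-ratio scaling, quantile normalization, no trend, a replicate block and leaving out each library. Genes named are all 10, and of each list those past the threshold and up to 3 others with the highest mean, plus the 5 genes nearest in profile to the metallothionein sum. SLC39A8, SLC30A3, SLC30A4 and GCLC were named after their values were seen.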

Additional observations from a re-analysis of the deposited data

How the results depend on the processing

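Of the 10 genes 1 passed with all libraries, and 1 to 3 passed when 1 library was left out; 3 passed without siCtrl 2 and 3 after GC adjustment. Over all genes the count was 1970; leaving out 1 library gave 764 to 3804 (the highest without siCtrl 2; 868 without siCtrl 3, 843 without siNUDT5 1, 775 without siNUDT5 2 and the lowest without siNUDT5 3), and GC adjustment gave 4717. Median-ratio scaling gave 1034 higher and 904 lower, and quantile normalization 1018 and 965, against 1334 and 636. Same-numbered libraries did not deviate together (correlations of -0.426, -0.538 and -0.0449 for replicates 1, 2 and 3). With 3 libraries per group, this cannot decide whether the same number marks samples handled together. The main fit used no pairing. The replicate block gave 739 genes, and 1 of the 10. Under the block SLC39A11 (adjusted p = 0.0806), SLC31A2 (0.0583), GCLM (0.0589), CEBPD (0.0736), DUSP1 (0.125) and SLC39A13 lost their calls.

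Changes near 0 turned sign. SLC30A1 gave -0.0017 with median-ratio scaling, -0.0048 with quantile normalization and -0.13 to 0.33 with a library left out. SLC39A10 gave -0.19 to 0.18, SLC30A9 -0.11 to 0.12, SLC39A9 -0.049 to 0.10, HSPH1 -0.045 to 0.26 and NR3C1 -0.12 to 0.13 with a library left out. SLC30A9 gave 0.011 after GC adjustment, SLC39A9 -0.052 with median-ratio scaling and -0.060 with quantile normalization, and HSPA8 -0.0034 with median-ratio scaling. The cause was not tested. With a library left out, MT1E gave -0.44 to -0.26, MT2A -0.24 to -0.08, MT1X 0.0094 to 0.29, and the log2 ratio of MT1E to MT2A differed by -0.21 to -0.18. Depth limits low genes such as MT1G, whose values are small whole multiples of the lowest.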

Other observations

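Of 13 tested genes known to respond to metal or oxidative stress, 1 rose, 3 fell and 9 did not pass by limma, where 16.1% of all tested genes passed. An unadjusted limma p under 0.05 was reached by 10 of the 13, 6 upward and 4 downward, against 31.0% of all tested genes. The groups did not overlap in 10 of the 13, 6 higher and 4 lower in siNUDT5, against 37.3% of all tested genes. DNAJB1, a heat shock cochaperone, averaged 219 ± 4.82 TPM in siNUDT5 and 137 ± 8.35 TPM in siCtrl (SD, n = 3 each, log2 change 0.68, adjusted p = 0.00150). The thioredoxin reductase gene TXNRD1 (-1.77), SLC7A11 (-1.13), which imports cystine, and GCLM (-0.70), a subunit of the enzyme that starts glutathione synthesis, fell; the call of GCLM was lost with no filter (adjusted p = 0.0602), with the replicate block, and without siCtrl 3 (0.0844) or any 1 siNUDT5 library. GCLC, the gene of that enzyme's other subunit, was higher in siNUDT5 without overlap but did not pass (0.39, limma adjusted p = 0.096). Leaving out siCtrl 2 made the changes of SLC7A11 (-0.90) and GCLM (-0.49) smaller, and both still passed (limma adjusted p = 4.9e-05 and 0.0025). The chaperone genes HSPA8 (0.05) and HSPH1 (0.09) and NQO1 (-0.25) did not pass, though HSPH1 and NQO1 did without siCtrl 2 (0.26, adjusted p = 0.0310, and -0.26, 0.0172), and NQO1 also with median-ratio scaling (0.0354), quantile normalization (0.0411) and GC adjustment (0.00913). The list's median was 0.09, or 0.18 without siCtrl 2.

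Glucocorticoids are known inducers of MT2A. Of 9 tested glucocorticoid-induced genes 3 rose and 1 fell by limma, where 16.1% of all tested genes passed. An unadjusted limma p under 0.05 was reached by 8 of the 9, 4 upward and 4 downward, against 31.0% of all tested genes. The groups did not overlap in 8 of the 9, 4 higher and 4 lower in siNUDT5, against 37.3% of all tested genes. KLF9 averaged 14.5 ± 1.66 TPM in siNUDT5 and 5.99 ± 1.67 TPM in siCtrl (SD, n = 3 each, log2 change 1.17, adjusted p = 0.00376), and the kinase gene SGK1 15.7 ± 1.08 TPM in siNUDT5 and 9.31 ± 0.209 TPM in siCtrl (0.69, adjusted p = 0.00312). CEBPD rose by 0.57 and the phosphatase gene DUSP1 fell by 0.37; CEBPD lost its call with no filter (adjusted p = 0.0522), median-ratio scaling (0.0558), quantile normalization (0.0552), the replicate block and GC adjustment (0.34, 0.0739), and without siCtrl 1 (0.0708) or any 1 siNUDT5 library. DUSP1 lost its call with the replicate block and without siCtrl 3 (0.0691) or any 1 siNUDT5 library. FKBP5 (-0.26), ERRFI1 (-0.26) and the receptor gene NR3C1 (-0.03) did not pass. After GC adjustment FKBP5 (-0.25, adjusted p = 0.00610) and ERRFI1 (-0.26, 0.00308) passed, ERRFI1 also with quantile normalization (0.0476); without siCtrl 2 they were at -0.16 and -0.17. The list's median was -0.03, or 0.13 without siCtrl 2.

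The genes whose centred log2 profile over the 6 libraries lay nearest to that of the summed metallothionein TPM were TPCN2, AIFM2, MRPL49, METTL12 and SPEG, with root mean square differences of 0.0280, 0.0316, 0.0332, 0.0358 and 0.0380, where the median of 12233 genes was 0.253. They were picked by their values in these same 6 libraries. Their changes therefore resemble that of the sum by selection and are no separate result. With all libraries none of them passed by limma, with log2 changes of -0.25 to -0.16, where 16.1% of all tested genes passed. Without siCtrl 2 AIFM2 (-0.33, adjusted p = 0.0220) and MRPL49 (-0.30, 0.0166) passed, where 31.1% of all genes did. After GC adjustment TPCN2 (-0.32, adjusted p = 0.00965), AIFM2 (-0.36, 0.00220), MRPL49 (-0.28, 0.0128) and SPEG (-0.39, 0.00617) passed, where 40.8% of all genes did. METTL12 was not in that fit.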
